A study of Mus musculus with 16 samples.

Results

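The genes described here are the giant cadherins Dchs1, Dchs2, Fat1, Fat2, Fat3 and Fat4 together with Fjx1, 7 genes of 54532 in the deposited tables. They were chosen by name, as the mouse Dachsous and Fat families and their Golgi regulator, with the results of the comparison between the groups known. In that comparison Dchs1 was among the few genes past the threshold in the authors' deposited table, so the differences of these genes between the groups are given as description. The libraries come from parvalbumin (PV) interneurons, fast-spiking GABAergic cells, sorted from the cortex of adult mice aged 113.1 ± 11.6 days over the whole study. In 7 libraries the mice carried PV-Cre with lsl-eGFP-GluA2, so that Cre switched on eGFP fused to the AMPA receptor subunit GluA2 in PV cells. In the other 9 libraries, the control, the mice carried PV-Cre with lsl-eGFP and made eGFP alone. Both groups thus share the PV-Cre driver and a green marker, and no sex, litter or batch per mouse is given in the sources used here. Fixed cells that were positive for a nuclear dye and for green fluorescence were collected, and each library is labelled as a biological replicate. The comparison addresses what removal of calcium-permeable AMPA receptors does to these cells.

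Fat and Dachsous proteins are very large atypical cadherins whose extracellular parts hold long rows of cadherin repeats. In Drosophila, Fat and Dachsous on neighbouring cells bind each other, and the Golgi kinase Four-jointed phosphorylates their repeats and tunes that binding. The system sets planar cell polarity and restrains growth through the Hippo pathway. In mammals Fat4 and Dchs1 form the best known binding pair and act in neuronal migration and in the shaping of several organs, and Fjx1 is the counterpart of Four-jointed.

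The libraries held 7454165 to 15462544 counts. The sorted cells carried the markers of their label: Gad1, which makes GABA, stood at 386 to 1244 TPM in eGFP-GluA2 and 368 to 997 TPM in eGFP libraries. Gria2, which encodes GluA2, ran from 718 to 1215 CPM over the 7 eGFP-GluA2 libraries, against 472 to 783 CPM over the 9 eGFP libraries, and the counts may hold reads of both the transgene and the endogenous gene. Libraries also differed in the level of 1448 receptor genes of the nose (olfactory and vomeronasal), called the background here. The background was high in 6 libraries (2 eGFP-GluA2, 4 eGFP) at 1909 to 4142 CPM. It was at 675 to 1276 CPM in a middle set of 5 (3 eGFP-GluA2, 2 eGFP), and low in 5 (2 eGFP-GluA2, 3 eGFP) at 82.4 to 162 CPM. These sets of libraries were defined from the data and are not groups of the study. In bulk libraries, fewer cells of a type and less RNA per cell cannot be told apart.

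All 7 genes passed the filter on low counts, and each had reads in all 16 libraries. The promoters of the member with the highest mean TPM and the 2 members with the lowest levels are shown because they mark the ends of the order described below. The sequences run from 250 bases before to 50 bases after the start, are from RefSeq on GRCm38.p6, and have each CG dinucleotide in capitals. RefSeq promoters were found for 5 of the 7 genes. The Fat3 window is chr9:16502005-16502304 on the minus strand, the Dchs2 window chr3:83127277-83127576 on the plus strand and the Fat2 window chr11:55312208-55312507 on the minus strand.
Fat3: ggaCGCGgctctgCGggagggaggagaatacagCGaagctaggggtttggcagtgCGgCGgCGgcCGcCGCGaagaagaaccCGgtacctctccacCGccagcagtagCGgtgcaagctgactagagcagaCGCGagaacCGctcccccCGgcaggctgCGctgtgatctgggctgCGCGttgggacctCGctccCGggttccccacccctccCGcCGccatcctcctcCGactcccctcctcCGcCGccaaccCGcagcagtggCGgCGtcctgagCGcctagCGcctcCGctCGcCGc
Dchs2: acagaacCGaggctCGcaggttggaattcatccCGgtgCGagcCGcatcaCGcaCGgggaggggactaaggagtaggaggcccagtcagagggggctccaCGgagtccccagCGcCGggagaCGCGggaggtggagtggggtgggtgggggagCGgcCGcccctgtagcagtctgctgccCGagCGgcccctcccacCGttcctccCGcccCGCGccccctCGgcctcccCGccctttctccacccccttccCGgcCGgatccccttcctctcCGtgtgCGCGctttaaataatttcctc
Fat2: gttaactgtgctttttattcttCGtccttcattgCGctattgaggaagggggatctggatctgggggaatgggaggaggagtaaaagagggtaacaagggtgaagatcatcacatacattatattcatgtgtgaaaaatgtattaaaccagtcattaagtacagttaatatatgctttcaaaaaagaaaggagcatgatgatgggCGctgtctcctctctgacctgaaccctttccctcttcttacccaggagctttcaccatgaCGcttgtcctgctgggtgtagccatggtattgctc
The motif searched was CG, which reads the same on both strands. It occurred 35 times in the Fat3 window, a count reached by 6.95% of the 32851 promoters in the table. The Dchs2 window held it 27 times, reached by 15.5% of promoters, and the Fat2 window 4 times, reached by 68.6%; the median promoter held 7. Among the other matched members, Fat4 held 13 and Fat1 held 2. The Fat2 and Fat1 windows lie inside the spans that GENCODE gives these genes, not at their outer ends. On the minus strand the Fat2 span begins at 55336564, far upstream of its window. Whether transcription starts at these 2 windows in PV cells was not tested. Their CG counts may therefore not be those of the promoters in use, and no low CG content is read from them.

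The 7 genes lay at very different levels in the libraries of sorted PV cells. TPM is scaled for transcript length, so levels of different genes can be set side by side on it. Fat3 and Dchs1 led, at 7.48 ± 1.87 and 7.30 ± 1.65 TPM (SD, n = 16), and the family's summed TPM was 66.3% ± 2.78 (SD, n = 16) from this pair. Fjx1 followed at 3.61 ± 1.26 TPM, Fat1 at 2.05 ± 0.427 TPM and Fat4 at 1.14 ± 0.326 TPM. Dchs2 at 0.387 ± 0.23 TPM and Fat2 at 0.255 ± 0.26 TPM were over 1 TPM in 0 of 16 libraries, while Fat3, Dchs1, Fjx1 and Fat1 were over it in all 16 and Fat4 in 11. Of all genes in the tables, 84.3% had a lower mean TPM than Fat3 and 27.8% a lower one than Fat2. The means of Fat2 and Dchs2 join libraries of unlike background. Fat2 had 0.00324 to 0.0122 TPM in low-background and 0.27 to 0.727 TPM in high-background libraries. For Dchs2 these ranges were 0.124 to 0.181 and 0.435 to 0.855 TPM.

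Neighbours in this order were compared within libraries on log2(TPM + 0.5) by an exact two-sided sign-flip permutation test, adjusted over the 6 pairs. The order came from mean TPM in the same libraries, so the direction of each pair was set by the data tested. Fat3 and Dchs1 did not differ beyond their spread, with a mean difference of 0.03 ± 0.26 (SD, n = 16), Fat3 higher in 8 of 16 libraries and an exact permutation p of 0.621. Dchs1 exceeded Fjx1 by 0.95 ± 0.40 in 16 of 16 libraries (exact adjusted p = 6.1e-05). Fjx1 exceeded Fat1 by 0.66 ± 0.49 in 15 of 16 (exact adjusted p = 7.32e-05). Fat1 exceeded Fat4 by 0.64 ± 0.25, and Fat4 exceeded Dchs2 by 0.90 ± 0.28, each in 16 of 16 libraries (exact adjusted p = 6.1e-05 for both). Dchs2 exceeded Fat2 by 0.27 ± 0.15 in 15 of 16 libraries (exact adjusted p = 7.32e-05). In counts per kilobase of exon these 2 genes overlapped where the nose receptor background was high, at 9.83 to 17.9 and 9.09 to 16.5. The order at the top differed between the deposited tables: in deposited counts scaled to exon length and library size, Dchs1 averaged 8.92 ± 1.03 and Fat3 7.57 ± 1.01 (SD, n = 16), and their log2 difference turned to -0.22 (exact adjusted p = 0.00494). On the same scale Fjx1 averaged 6.99 ± 1.57, close to Fat3, and the log2 difference was 0.35 for Dchs1 over Fjx1 and 1.42 for Fjx1 over Fat1. That scale differs from TPM both in the length used and in how reads were assigned, and which of these moved the values was not tested.

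**Figure D1:**
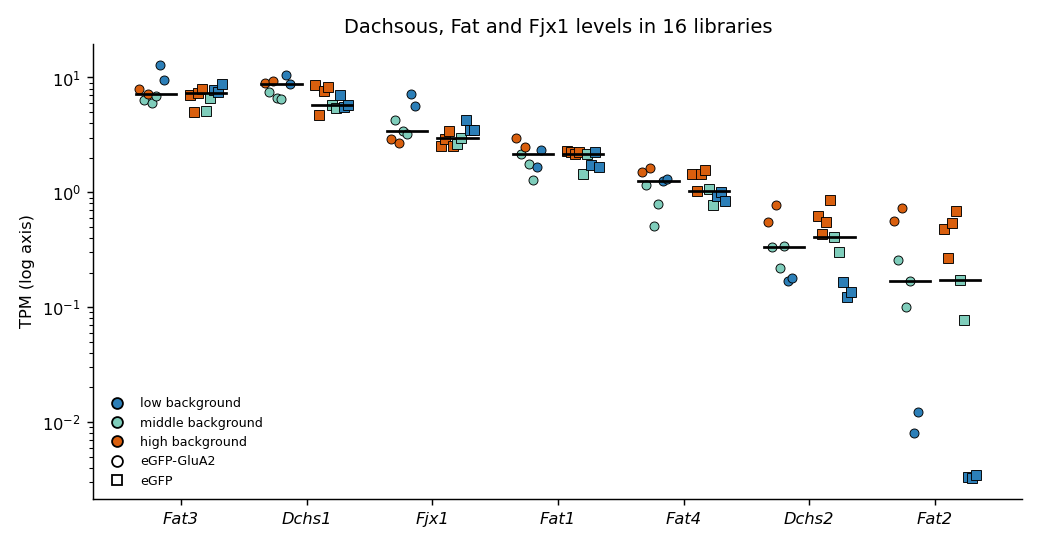
TPM of the 7 genes in each library on a log axis, ordered by mean level, with eGFP-GluA2 libraries (circles, n = 7) left of eGFP libraries (squares, n = 9), coloured by background, and bars at group medians. Fat3 and Dchs1 sit together at the top, and Fat2 spans from 0.00324 to 0.727 TPM with its lowest points in the low-background libraries.

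The members differed in how their reads stood against the background. In mean log2 CPM, Fat2 and Dchs2 were higher where it was high, and Fat3, Fjx1 and Dchs1 were lower. Fat1 and Fat4 stood near the median gene. Fat2, known in the cerebellum as a cadherin of granule cell axons, had 2 to 4 counts in each of the 5 low-background libraries but up to 239 elsewhere. Its CPM was 0.142 to 0.346 in low-background, 4.77 to 9.04 in middle and 12.5 to 19.1 in high-background libraries, so that these sets did not overlap. Its mean log2 CPM was 5.28 higher in the high-background than in the low-background libraries, more than for 99.9% of tested genes, whose median difference was 0.19. Per kilobase of exon, Fat2 held 9.09 to 16.5 counts in high-background libraries, 2.1 to 2.91 times the count per kilobase of the receptor genes there. In low-background libraries it held 0.138 to 0.275 counts per kilobase, 0.345 to 1.11 times that of the receptor genes. Fat2 thus stood within a few fold of the nose receptor genes per kilobase in each of the 16 libraries.

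Of 6 markers of cerebellar granule cells, Gabra6 and Zic1 were at 0 in at least 1 library, and the summed level of the list was 3.54 to 26.5 CPM in eGFP-GluA2 and 1.47 to 20.8 CPM in eGFP libraries. Cbln3, the most abundant of the 6, had 0.547 to 2.50 TPM in eGFP-GluA2 and 0.333 to 2.72 TPM in eGFP libraries. These values are by group and not by background set. The part of such cells in the Fat2 reads was not tested.

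Dchs2, a Dachsous of little known function in mammals, came next: its CPM was at most 3.12 in low-background, 4.89 to 9.54 in middle and at most 15.4 (median 11.5) in high-background libraries, again without overlap. Its high-background mean exceeded its low-background mean by 2.20 in log2 CPM, more than for 74.6% of tested genes. In low-background libraries Dchs2 held 5.58 to 15.3 times the receptor genes' count per kilobase, against 2.01 to 2.65 times in high-background ones. Dchs2 thus kept a level above the receptor genes where the background was low, at 24 to 36 counts per library.

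Fat1 and Fat4 were higher by 0.36 and 0.22 in mean log2 CPM where the background was high, close to the median gene at 0.19. Fat4, the partner of Dchs1, had 19.1 to 26.7 CPM in low-background and 24.7 to 27.6 CPM in high-background libraries. Fat1, whose intracellular part binds actin regulators of the Ena/VASP family, had 26.8 to 33.9 CPM in low-background and 34.5 to 42.9 CPM in high-background libraries. These 2 ranges of Fat1 did not overlap, while those of Fat4 did. Per kilobase, Fat4 held 38.2 to 82.3 times the receptor genes' count in low-background libraries, but 2.77 to 4.34 times in high-background ones. For Fat1 these ratios were 53.1 to 109 and 3.98 to 7.15.

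The remaining 3 genes had a lower mean log2 CPM where the background was high. Fat3, which in mouse retina shapes the dendrites of amacrine cells, had 192 to 228 CPM in low-background and 112 to 145 CPM in high-background libraries, a difference of -0.77 in mean log2 CPM. Fjx1 differed by -0.92 and Dchs1 by -0.32. For scale, Pvalb, which encodes parvalbumin, differed by -1.50 between the same libraries. Of tested genes, 12.4% had a lower difference than Fat3, 7.61% than Fjx1 and 31.3% than Dchs1. Dchs1 overlapped between the sets, at 89.6 to 118 CPM in low-background and 69.2 to 96.5 CPM in high-background libraries. In TPM it had 5.57 to 10.4 and 4.73 to 9.29 in these sets. Its mean log2 CPM was highest in the middle set, at 6.82. The order of Fat3, Dchs1 and Fjx1 above the other members held in each set of libraries on counts per kilobase.

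**Figure D2:**
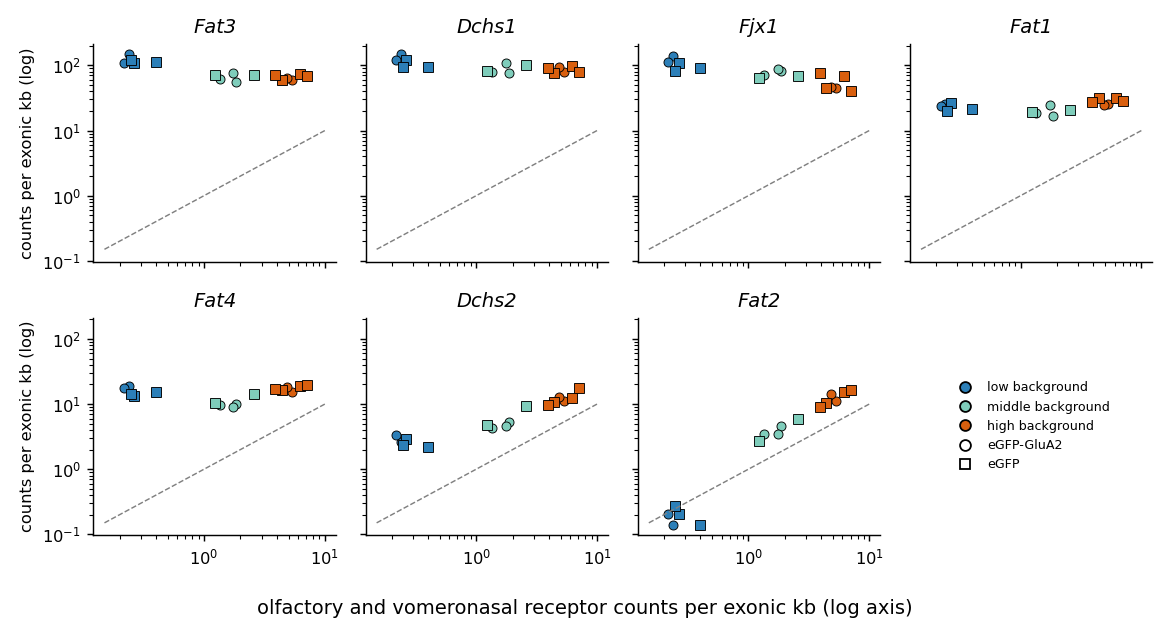
Counts per kilobase of annotated exon of each gene against counts per kilobase of the olfactory and vomeronasal receptor genes, both on log axes, 1 point per library (eGFP-GluA2 circles, eGFP squares); the dashed line marks equal values. Fat2 follows the line within a factor of 2.91 above and 0.345 below. Dchs2, and less closely Fat4 and Fat1, approach it in high-background libraries, and Fat3, Dchs1 and Fjx1 lie further above it.

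Dchs1 (ENSMUSG00000036862, GRCm38 chromosome 7: 105752990 to 105787654, minus strand, 11052 exonic bases) encodes the Dachsous that binds Fat4. In the authors' normalized counts it had a lowest, median and highest value of 1133, 1175 and 1228 in eGFP-GluA2 libraries, against 913, 992 and 1113 in eGFP libraries. All 7 eGFP-GluA2 libraries thus lay above all 9 eGFP libraries, on means of 1181 ± 32.4 (SD, n = 7) and 997 ± 57.6 (SD, n = 9). Such a separation with eGFP-GluA2 higher was found for 3 of 26257 tested genes, or 0.0114%. In the authors' deposited table the log2 fold change was 0.24 ± 0.05 (SE) and the adjusted p 0.00376, and Dchs1 was the only 1 of the 7 genes among the 9 called there, which are 0.0187% of 48144 genes with an adjusted p. The family was chosen with these values known, so they are no test of it, and nothing is read from them. With eGFP-GluA2 lower, 0 of the 7 genes separated on this scale, where 0.0267% of tested genes did.

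On the deposited counts the same gene gave less separated values. Its CPM was 87.0, 116 and 120.2 (lowest, median and highest) in eGFP-GluA2 libraries and 69.2, 96.2 and 109 in eGFP libraries. Here 5 of the 7 eGFP-GluA2 values exceeded the top eGFP value, and the other two, replicates 1 and 3, were the ones of high background. On TPM it had 6.43, 8.75 and 10.4 in eGFP-GluA2 and 4.73, 5.75 and 8.68 in eGFP libraries, with 4 of 7 above the top eGFP value. Without overlap in CPM were 0 of the 7 genes, where 0.00381% of tested genes were so with eGFP-GluA2 higher and 0.0152% with it lower. In TPM the count was again 0 of 7, where 0.00762% of tested genes separated in each direction. The edgeR fit over all genes gave a log2 fold change of 0.24 ± 0.12 (SE; 95% interval -0.01 to 0.48). In that fit 0 of the 7 genes passed the threshold, where 0.00381% of genes did, and 0 had an unadjusted p under 0.05, where 1.12% did. DESeq2 on the deposited counts called 0 of the 7 as well, where 0.0154% of genes were called. There 1 of the 7 had an unadjusted p under 0.05, as did 473 of 51806 genes. With the background as a covariate edgeR called 0 of the 7, where 0.0343% of genes were called. Dchs1 alone was again under an unadjusted p of 0.05, as were 999 of 26257 genes.

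**Figure D3:**
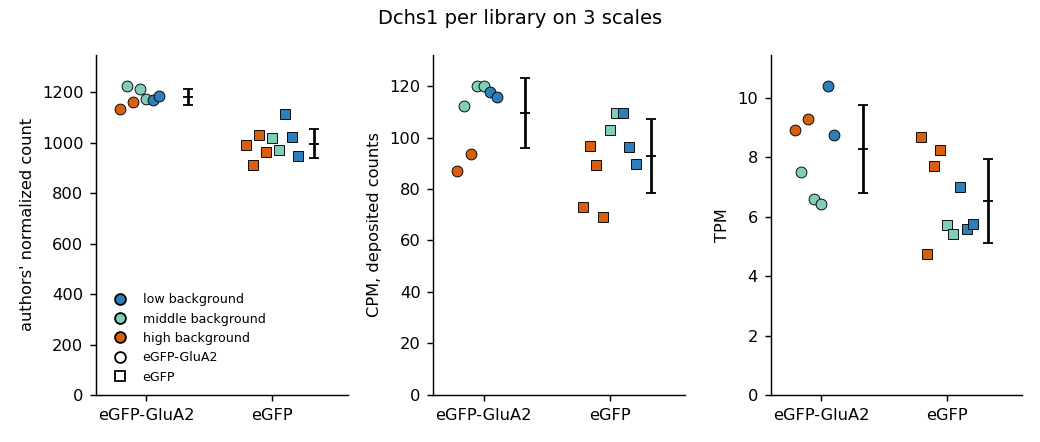
Dchs1 per library as authors' normalized counts, CPM of the deposited counts and TPM, with eGFP-GluA2 libraries left of eGFP libraries, colours by background, and mean ± SD beside the points. On the left scale the lowest eGFP-GluA2 library, at 1133, is above the highest eGFP library, at 1113; on the other scales the groups overlap.

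Within the background sets, the Dchs1 difference in mean log2 CPM was 0.25 in low-background, 0.14 in middle and 0.15 in high-background libraries. On the log2 scale of the authors' normalized counts it was 0.20, 0.28 and 0.24, where its sign is fixed by the separation of all libraries. A pseudogene on the other strand, Gm15645, shares 5.86% of the exonic bases of Dchs1 and was itself given 47 counts over all 16 libraries, where Dchs1 had 831 to 1661 in each.

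On the authors' scale Dchs1 had a small spread. Its pooled within-group SD there was 0.067 in log2 units, the smallest of 3381 tested genes within 2-fold of its level, whose median SD was 0.361; the next smallest was 0.072. In log2 CPM of the deposited counts its SD was 0.216, with 404 of the same genes below it. The variance within groups was 2.46 times the counting variance in the reads recovered from the authors' normalized values and 21.8 times in the deposited counts. For Fat3, at a like level, these ratios were 66.4 and 124. The SD is part of the same comparison that chose Dchs1, and it is given as a description.

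**Figure D4:**
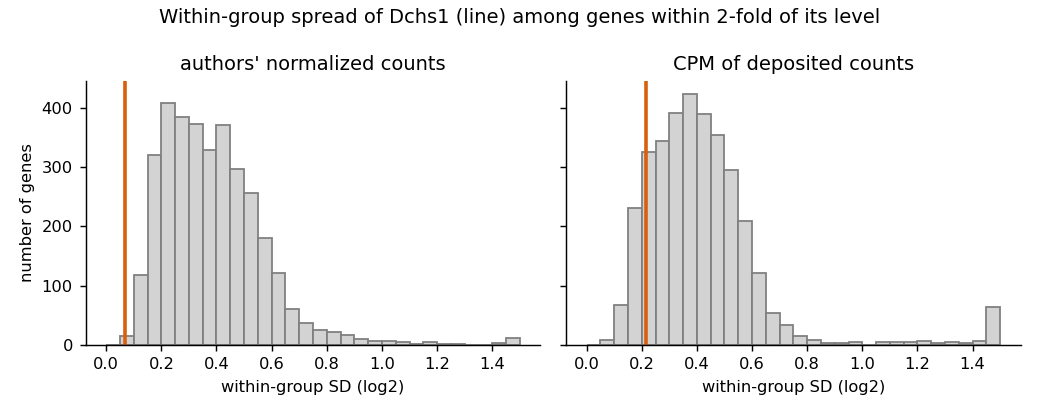
Numbers of genes by within-group SD (log2, bins of 0.05, the last bin holding all larger values) among the 3381 tested genes within 2-fold of the level of Dchs1, for authors' normalized counts (left) and CPM of deposited counts (right); the line marks Dchs1. The line lies at 0.067 on the left, below all other genes, and at 0.216 on the right, where 404 genes lie below it.

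Fjx1 (ENSMUSG00000075012, chromosome 2: 102449366 to 102452499, minus strand), a gene of a single exon, encodes the counterpart of the Four-jointed kinase. Its CPM was 13.1, 30.2 and 34.1 (lowest, median and highest) in eGFP-GluA2 libraries and 10.1, 22.0 and 28.5 in eGFP libraries, and 4 of the 7 eGFP-GluA2 values exceeded the top eGFP value. The log2 fold change was 0.33 ± 0.24 (SE; 95% interval -0.17 to 0.83). Within the background sets the difference in mean log2 CPM was 0.27 in low-background, 0.44 in middle and -0.13 in high-background libraries. On TPM Fjx1 stood at 7.21 and 5.66 in eGFP-GluA2 replicates 6 and 7, above every other library.

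The other Dachsous, Dchs2 (ENSMUSG00000102692, chromosome 3: 83127948 to 83357209, plus strand), had 0.170, 0.336 and 0.774 TPM in eGFP-GluA2 and 0.124, 0.409 and 0.855 TPM in eGFP libraries (lowest, median and highest). Its log2 fold change was -0.17 ± 0.46 (SE; 95% interval -1.14 to 0.80). The groups overlapped nearly throughout.

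Among the Fat genes, Fat3 (ENSMUSG00000074505, chromosome 9: 15910189 to 16501285, minus strand) had 5.96, 7.20 and 12.9 TPM in eGFP-GluA2 libraries and 5.02, 7.30 and 8.69 TPM in eGFP libraries. Its log2 fold change on counts was 0.05 ± 0.18 (SE; 95% interval -0.34 to 0.43), and the 2 eGFP-GluA2 libraries above the eGFP range on TPM were again replicates 6 and 7. Fat4 (ENSMUSG00000046743, chromosome 3: 38886940 to 39011985, plus strand) had 0.511, 1.26 and 1.61 TPM in eGFP-GluA2 and 0.771, 1.04 and 1.58 TPM in eGFP libraries, and a log2 fold change of -0.03 ± 0.11 (SE; 95% interval -0.27 to 0.20). The groups overlapped for both genes. Whether their fold changes differ from that of Dchs1 was not tested.

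Fat1 (ENSMUSG00000070047, chromosome 8: 44935447 to 45052257, plus strand) had 1.29, 2.16 and 2.95 TPM in eGFP-GluA2 and 1.45, 2.18 and 2.31 TPM in eGFP libraries, with a log2 fold change of 0.00 ± 0.11 (SE; 95% interval -0.23 to 0.23). Fat2 (ENSMUSG00000055333, chromosome 11: 55250609 to 55336564, minus strand) had 0.00796, 0.167 and 0.727 TPM in eGFP-GluA2 and 0.00324, 0.172 and 0.692 TPM in eGFP libraries. Its log2 fold change of -0.09 ± 0.90 (SE; 95% interval -1.99 to 1.81) has an interval that spans both directions widely. The groups overlapped for both genes.

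In the authors' deposited table the log2 fold changes of the other 6 genes were 0.17 ± 0.15 (SE) for Fjx1, 0.06 ± 0.12 for Fat3, 0.01 ± 0.09 for Fat2, -0.06 ± 0.13 for Fat1, -0.06 ± 0.12 for Fat4 and -0.06 ± 0.15 for Dchs2, each with an adjusted p of 1.00. DESeq2 run on the recovered reads gave 0.26 for Fjx1, 0.11 for Fat2 and -0.16 for Dchs2, further from 0 than the deposited values. Whether the deposited values were shrunk toward 0 was not tested. Their errors are therefore not set on one footing with those of edgeR, as for Fat2. Within the background sets, the Fat3 difference in mean log2 CPM was 0.01 in low-background, 0.05 in middle and 0.00 in high-background libraries. Fat4 gave 0.20, -0.17 and 0.02 in the same order, and Fat1 gave -0.01, 0.17 and -0.10. Dchs2 gave 0.10, -0.33 and 0.08, and Fat2 gave -0.21, 0.15 and 0.16. Genes on the other strand share 1299 exonic bases of Dchs2 (Gm10710), 487 of Fat1 (Gm2366) and 1209 of Fat4 (C230034O21Rik), and reads there could not be assigned to a strand.

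**Figure D5:**
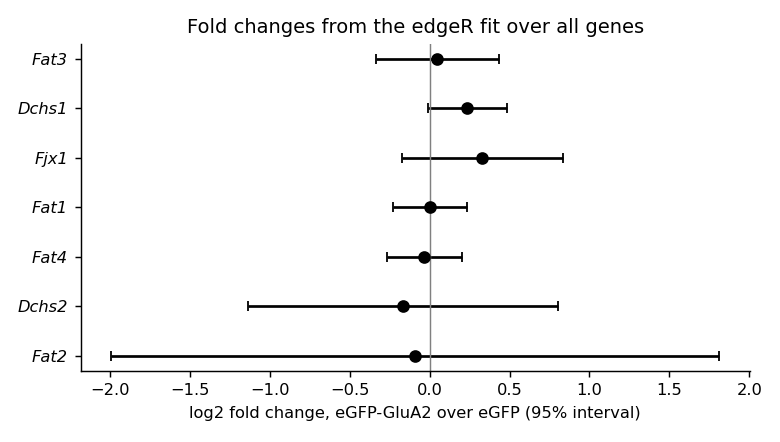
Log2 fold change of eGFP-GluA2 over eGFP for the 7 genes with 95% intervals, from the edgeR fit over all 26257 tested genes, ordered by level. All intervals include 0; Dchs1 runs from -0.01 to 0.48 and Fat2 from -1.99 to 1.81.

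The ratio of Dchs1 to its partner Fat4 in TPM averaged 7.74 ± 2.48 over eGFP-GluA2 libraries (SD, n = 7), against 5.94 ± 0.993 over eGFP libraries (SD, n = 9). The highest ratio, 12.9, came from eGFP-GluA2 replicate 4, where Fat4 was at its lowest. The share of Dchs1 in the summed TPM of the 7 genes averaged 34.1% ± 2.30 over eGFP-GluA2 libraries, against 31.7% ± 3.45 over eGFP libraries. That of Fat3 averaged 32.8% ± 3.54 over eGFP-GluA2 libraries, against 34.2% ± 4.04 over eGFP libraries.

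Likeness of pattern over the 16 libraries was measured as Pearson's r in log2 CPM after a linear fit on log2 background was taken off, among 12405 protein-coding genes, and is a description of libraries that share depth and background. Dchs1 was most like Oprd1, which encodes the delta opioid receptor (r = 0.96), and Kcnc1, which encodes a Kv3 potassium channel of fast-spiking cells (r = 0.94). Fjx1 was most like Acsl5 (r = 0.97) and Syngr3 (r = 0.96). Fat3 was most like Rnf113a2 (r = 0.90) and Dcaf12 (r = 0.85). Fat4 was most like Cep128 (r = 0.86) and Slc26a6 (r = 0.82), and Fat1 like Stx1a (r = 0.86) and Ildr2 (r = 0.78). For the scarce members the leading genes were Pla2r1 (r = 0.91) and Col2a1 (r = 0.91) for Fat2, and Sag (r = 0.79) and Parp4 (r = 0.78) for Dchs2. Within the family Dchs1 and Fjx1 were the most alike pair (r = 0.87), while Dchs1 and Fat4 had an r of -0.38.

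The wider pathway was described with 97 genes in 8 lists. In edgeR 0 of the 97 passed the threshold, with 2 at an unadjusted p under 0.05, where 0.00381% of all tested genes were called and 1.12% had such a p. DESeq2 gave the same counts of 0 and 2, where 473 of 51806 genes had such a p. With the background as a covariate the counts were 0 and 5, the 5 being Scrib, Ccn2, Mpdz, Cdh9 and Cdh22. In that fit 999 of all 26257 tested genes had such a p, so the 5 are not read as a result. The median log2 fold change over the 97 genes was -0.00, beside -0.02 over all genes tested. Core planar cell polarity genes, which orient cells within a sheet, were above 0 in 10 of 16 cases (median 0.06). Celsr2, a polarity cadherin, was the most abundant of them at 24.7 ± 7.84 TPM in eGFP-GluA2 and 21.3 ± 2.55 TPM in eGFP libraries. Scrib, a polarity scaffold, had the smallest p, with 75.0 ± 4.78 and 65.6 ± 7.26 CPM in these groups and a log2 fold change of 0.19 ± 0.08 (SE).

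Hippo kinases and their adaptors were above 0 in 9 of 19 cases, with Taok1, an upstream kinase, at -0.04 ± 0.23 and Frmd6 at 0.16 ± 0.08 (log2 fold change ± SE). The effectors, which carry the signal to the nucleus, were above 0 in 3 of 7 cases. Among them Yap1 had only 4.45 ± 3.16 CPM in eGFP-GluA2 and 5.26 ± 3.57 CPM in eGFP libraries, and Vgll4, which competes with YAP, had a log2 fold change of -0.07 ± 0.19. Of 5 YAP target genes 2 were above 0; Ccn2, a secreted matrix protein, had 4.62 ± 1.49 CPM in eGFP-GluA2 and 3.38 ± 0.704 CPM in eGFP libraries (log2 fold change 0.45 ± 0.21), and Crim1 had -0.03 ± 0.10. Intracellular partners reported for Fat and Dachsous were above 0 in 6 of 13 cases, with the Ena/VASP protein Evl at -0.02 ± 0.19 and the PDZ protein Mpdz at -0.28 ± 0.18.

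Classical cadherins were above 0 in 9 of 19 cases, led in level by Cdh7 at 27.1 ± 12.1 TPM in eGFP-GluA2 and 24.8 ± 5.40 TPM in eGFP libraries; Cdh22 had a log2 fold change of 0.44 ± 0.21. Nonclustered protocadherins were above 0 in 4 of 12 cases, led by Pcdh9 at 56.1 ± 16.2 and 52.4 ± 8.44 TPM in these groups, with Pcdh20 at -0.23 ± 0.14. Other large cadherins were above 0 in 3 of 7 cases, with the calsyntenin Clstn1 at 0.15 ± 0.29.

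Markers of other cells had lower summed CPM than those of PV interneurons. Some still exceeded Fat3, which averaged 7.48 TPM. In eGFP-GluA2 libraries Cck had 38.8 to 125 TPM and Camk2a 20.3 to 39.9 TPM. In eGFP libraries they had 55.3 to 116 and 18.7 to 26.1 TPM. The oligodendrocyte marker Mbp was above the Fat3 mean in all libraries, at 8.93 to 23.0 TPM in eGFP-GluA2 and 7.65 to 18.3 TPM in eGFP. For the astrocyte marker Slc1a2 these ranges were 8.84 to 24.8 and 5.33 to 24.4 TPM. Endothelial Pecam1 ranged from below to above that mean, at 1.57 to 8.87 and 1.49 to 9.89 TPM. The most abundant microglial marker, P2ry12, and the most abundant mural and fibroblast marker, Dcn, stayed below the Fat3 mean. Summed over 8 astrocyte markers the level was 90.9 to 194 CPM in eGFP-GluA2 and 93.6 to 226 CPM in eGFP libraries, and over 7 oligodendrocyte lineage markers 109 to 126 and 79.6 to 156 CPM. The 8 excitatory neuron markers summed to 192 to 320 CPM in eGFP-GluA2 and 157 to 287 CPM in eGFP libraries, with 3 of the 7 eGFP-GluA2 values above the top eGFP value; their most abundant member was Camk2a. Mural and fibroblast markers, 8 genes, summed to 7.08 to 68.9 and 8.06 to 56.8 CPM, with Kcnj8 and Lum at 0 in at least 1 library. Other interneuron markers, 8 genes, summed to 186 to 314 and 163 to 332 CPM, microglial markers had medians of 20.8 and 19.9 CPM, and endothelial markers summed to 7.51 to 59.7 and 7.36 to 62.7 CPM in eGFP-GluA2 and eGFP libraries. The 10 PV interneuron markers summed to 4805 to 12064 CPM in eGFP-GluA2 and 4397 to 12454 CPM in eGFP libraries. The part of these cells in the difference in Dchs1 was not tested.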

How the data were processed

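Per the labels' protocols, polyA RNA from sorted, fixed PV interneurons was read from both ends at 150 bp. Per the series' design text, the authors used bcbio-nextgen 1.2.3 with STAR on GRCm38, Sailfish on the Ensembl annotation and DESeq2; other versions are not stated in these sources. The deposited counts are whole numbers per gene, not normalized; which counter made them is not given. The deposited TPM values are scaled for transcript length by the authors. The authors' deposited table also holds signal values, which are normalized counts, and for each gene a log2 fold change, its error, a score for the test and p-values. Of the signal values 100% were whole multiples of 1 read (tolerance 0.001), which gave 10477517 to 17382059 recovered reads per library. The strand setting of the counting is not stated, and reads shared with antisense genes cannot be assigned.

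Genes were named from GENCODE M21 on GRCm38 (54495 of 54532); coordinates are 1-based. The main test was edgeR 4.0.16 on counts, eGFP-GluA2 over eGFP: TMM, filterByExpr (26257 genes kept), quasi-likelihood F test with robust dispersion, Benjamini-Hochberg adjustment, threshold 0.05. Standard errors came from the F statistic. The test was also run on simulated counts, which had the same dispersion for all genes and no background differences, unlike these libraries. There it called 31.1% of genes changed 1.5-fold and 93.5% of those changed 2-fold. Smaller changes were not simulated. CPM use TMM library sizes; log2 CPM have a prior count of 2. Alternatives used DESeq2 1.42.0, limma 3.58.1, sva 3.50.0, R 4.3.3 and scipy 1.17.1. The background is the CPM of 1448 autosomal protein-coding olfactory and vomeronasal receptor genes, with sets under 500, 500 to 1500 and over 1500 CPM. P-values measure the spread between libraries labelled as biological replicates.

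The 7 genes, the gene lists and the rules were chosen with earlier results of these data known. Named are the 7 genes, the 2 genes most alike in pattern to each, and per pathway list the genes past the threshold or, where none passed, those of highest TPM and of smallest p. Cell-type markers are named by the most abundant or absent members.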

Additional observations from a re-analysis of the deposited data

Results flagged for a closer look

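Among the values of the 7 genes in each group, on CPM, TPM and the authors' normalized counts (42 groups of 7 or 9 libraries), 1 library lay far from the others of its group. This was Fat4 in eGFP-GluA2 replicate 4, with 15.6 CPM against 22.4 to 27.6 CPM in the other 6 eGFP-GluA2 libraries. Its gap to the next value was 0.57 of the whole range of the group. About 1 in 20 groups is flagged by chance.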

How the results depend on the processing

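The log2 fold change of Dchs1 stayed above 0 under all 36 alternative settings (0.16 to 0.34), as did that of Fjx1 (0.17 to 0.45). The other directions turned: values were above 0 under 31 settings for Fat3 (-0.04 to 0.18), 18 for Fat1 (-0.11 to 0.14), 15 for Fat2 (-0.74 to 0.66), 7 for Fat4 (-0.13 to 0.06) and 3 for Dchs2 (-0.53 to 0.06). No member's value moved by over 1 within-group SD. That SD is of single libraries and is wide for Fat2 (2.42 in log2 CPM) and Dchs2 (1.01). For these 2 genes it is therefore no sign of a stable fold change. The number of members past the threshold was 0 under 35 settings and 1, Dchs1, with DESeq2 on recovered reads. That setting, the background tiers and the fits without high-background or without low-background libraries were chosen after seeing the data. Leaving out each library gave 0 members and 1 gene throughout. Over all genes 1 passed in the main test, 2 with upper-quartile scaling, library totals or limma on log2(TPM + 0.5) or log2(TPM + 1), 3 on recovered reads, with limma on log2(TPM + 0.1) or without the 6 high-background libraries, 9 with the background covariate, 1 surrogate variable or DESeq2 on recovered reads, 11 with background tiers as a factor, 8 with DESeq2 and 0 among protein-coding genes (196 at an unadjusted p under 0.05). The replicate block gave 8 genes, and 6 with the background covariate; the block rests on a shared number only, since same-numbered libraries correlated in their deviations from group means at -0.03 to 0.90, and 2 of 7 eGFP-GluA2 libraries correlated best with their own number. In counts per exonic kilobase the level of Fat3 over Dchs1 was reversed, at -0.22; the cause was not tested. Counts of 2 to 4 limit Fat2 in low-background libraries.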
